A study of Homo sapiens with 12 samples.

Results

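Metallothioneins and the zinc transporters linked to them were followed in a human endometrial stromal cell line exposed to inflammatory cytokines. The members were 9 named genes, the metallothioneins MT1E, MT1F, MT1G, MT1H, MT1X and MT2A, the zinc importers SLC39A8 (ZIP8) and SLC39A14 (ZIP14), and the zinc exporter SLC30A1 (ZnT1). Every probe that the array's gene table listed with 1 of these genes was taken, which gave 11 of 54359 probes on the array. Of these, 10 were listed with 1 gene each and 1 was listed with both CNBP and MT2A. MT2A had no probe of its own, so 8 of the 9 genes were measured by a probe of their own, as were 18278 genes on the array in all, and the shared probe is given below under both names with no value assigned to either gene.

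The cells were T-HESC, a line of human endometrial stromal cells made immortal with telomerase, and all groups came from this 1 line. Cells were starved of serum for 24 h and then treated for 48 h with vehicle, with TNFα at 5 ng/ml, with IL1β at 1 ng/ml, or with both cytokines at those doses. Each of the 4 groups held 3 arrays, with 1 array from a culture at each of passages 13 (replicate 1), 28 (replicate 2) and 15 (replicate 3). The replicates are therefore passages of a single line, and p-values measure the spread between these cultures and not between donors.

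Metallothioneins are small cysteine-rich proteins that bind zinc and copper and are induced by metals through the zinc-sensing transcription factor MTF1. ZIP proteins carry zinc into the cytosol, and ZIP8 and ZIP14 also carry iron and manganese. ZnT1 sits at the cell surface and exports zinc. Inflammatory cytokines are known to raise ZIP14 in liver and ZIP8 in several other cell types, and metallothionein levels in the endometrium are known to vary over the menstrual cycle.

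MTF1 acts through short metal response elements in promoters, so the promoter windows of the members are shown first. The RefSeq table used here (GRCh38.p14) held a window of the 250 bases before the start of transcription for 5 of the 9 genes; MT1E, MT1F, MT1G and SLC39A14 had none. The core of the element was searched as TGCACNC and TGCGCNC on both strands, and no matches overlapped in the windows printed here. The windows below contrast a pair of metallothioneins with the importer ZIP8 and the exporter ZnT1. They are written 5′ to 3′ on the strand of the gene, and capitals mark the matches.
MT1X, chr16:56682220-56682469, plus strand: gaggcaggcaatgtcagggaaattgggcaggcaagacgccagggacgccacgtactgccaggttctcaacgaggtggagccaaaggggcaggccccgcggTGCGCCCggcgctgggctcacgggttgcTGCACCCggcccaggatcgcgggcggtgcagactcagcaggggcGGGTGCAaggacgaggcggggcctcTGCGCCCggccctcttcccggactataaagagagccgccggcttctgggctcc
MT2A, chr16:56608334-56608583, plus strand: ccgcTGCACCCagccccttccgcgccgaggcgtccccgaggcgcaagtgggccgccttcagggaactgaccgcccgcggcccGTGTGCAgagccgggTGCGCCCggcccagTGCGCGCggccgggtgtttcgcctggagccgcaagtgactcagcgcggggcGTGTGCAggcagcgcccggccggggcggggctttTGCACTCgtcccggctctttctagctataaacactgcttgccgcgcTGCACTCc
SLC39A8, chr4:102345483-102345732, minus strand: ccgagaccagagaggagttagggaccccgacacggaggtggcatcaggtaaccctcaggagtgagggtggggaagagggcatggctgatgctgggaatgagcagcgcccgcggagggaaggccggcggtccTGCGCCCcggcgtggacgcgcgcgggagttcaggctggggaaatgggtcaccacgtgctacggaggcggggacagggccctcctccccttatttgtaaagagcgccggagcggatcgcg
SLC30A1, chr1:211579162-211579411, minus strand: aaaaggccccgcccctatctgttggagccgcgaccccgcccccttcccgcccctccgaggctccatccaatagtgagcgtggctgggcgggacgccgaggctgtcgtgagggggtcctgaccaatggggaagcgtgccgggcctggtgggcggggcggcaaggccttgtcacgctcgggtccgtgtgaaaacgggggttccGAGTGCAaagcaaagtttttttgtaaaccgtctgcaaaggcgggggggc
The MT2A window held 7 matches and the MT1X window 4, and the MT1H window held 8. The SLC30A1 window held 1 match. SLC39A8 has 3 windows in the table, of which the one shown held 1 match and the other two held 0. Among all 35116 windows of this length in the table, 24.8% held at least 1 match, 1.58% at least 3 and 0.12% at least 5. The 3 metallothionein windows thus held more matches than most windows, and a single match was common. A match of letters is a description and does not show that a factor binds there.

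Values are log2 of the intensity that the authors scaled, as inferred from array medians close to an intensity of 1, so a value near 0 is about the middle of the array's probes. The metallothionein MT1X was the brightest member with a probe of its own, with a mean over the 12 arrays at the 97.5 percentile of all probes. SLC39A14 stood at the 89.5 percentile and MT1E at the 78.1 percentile. The probes of SLC30A1 stood at the 91.9 percentile (probe 235088) and the 61.1 percentile (probe 225093). MT1F, SLC39A8 and MT1G were dim, at the 43.9, 35.7 and 34.6 percentiles, and the MT1H probes were dimmer, at the 21.8 percentile (probe 54060) and the 7.52 percentile (probe 164021). MT1G and both MT1H probes were below the array median on every array. The files used here carry no detection calls, and dim values hold a larger part of background. Probe sequences were not used here, and metallothionein genes are near-identical copies, so a probe named for 1 of them may also take signal from others.

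Several arrays stood apart from the rest of their group, and some members varied along with them. The first principal component, over the 26635 probes with 12 values and a mean above the median, took 47.9% of the variance. It placed vehicle replicate 1 at -83.7 and vehicle replicate 3 at 97.6, with TNFα replicate 3 at 61.3 and IL1β replicate 2 at 48.3, and the other 8 arrays between -21.5 and -8.75. All 3 arrays with both cytokines lay close together, between -15.2 and -8.75. The cells carried the markers of their labelled type: 7 of 7 measured stromal markers were above the array median on every array. Of other cell types, 4 of 6 epithelial markers (KRT19, KRT18, MUC1 and KRT8), 1 of 5 endothelial markers (PECAM1) and 2 of 8 leukocyte markers (CD68 and CD3E) were also above it on every array, while EPCAM, KDR and PTPRC had the lowest mean of their lists, at the 34.8, 2.03 and 0.853 percentiles. The cytokines acted on the cultures: SOD2, a mitochondrial antioxidant enzyme, was higher than in vehicle by 3.96 with TNFα, 3.49 with IL1β and 4.77 with both on the log2 scale (limma, adjusted p 0.00319, 0.0123 and 0.000518). With both cytokines HSD11B1, a cortisol-producing enzyme, was higher by 7.12 (adjusted p 0.000518) and the chemokine CXCL8 by 4.87 (adjusted p 0.00944). HSD11B1 also passed the test with TNFα (5.73, limma adjusted p 0.00319) and with IL1β (4.87, adjusted p 0.0227). CXCL8 did not, at 3.99 with TNFα (adjusted p 0.0612) and 4.59 with IL1β (adjusted p 0.132), so a large change could go uncalled with a single cytokine.

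**Figure D1:**
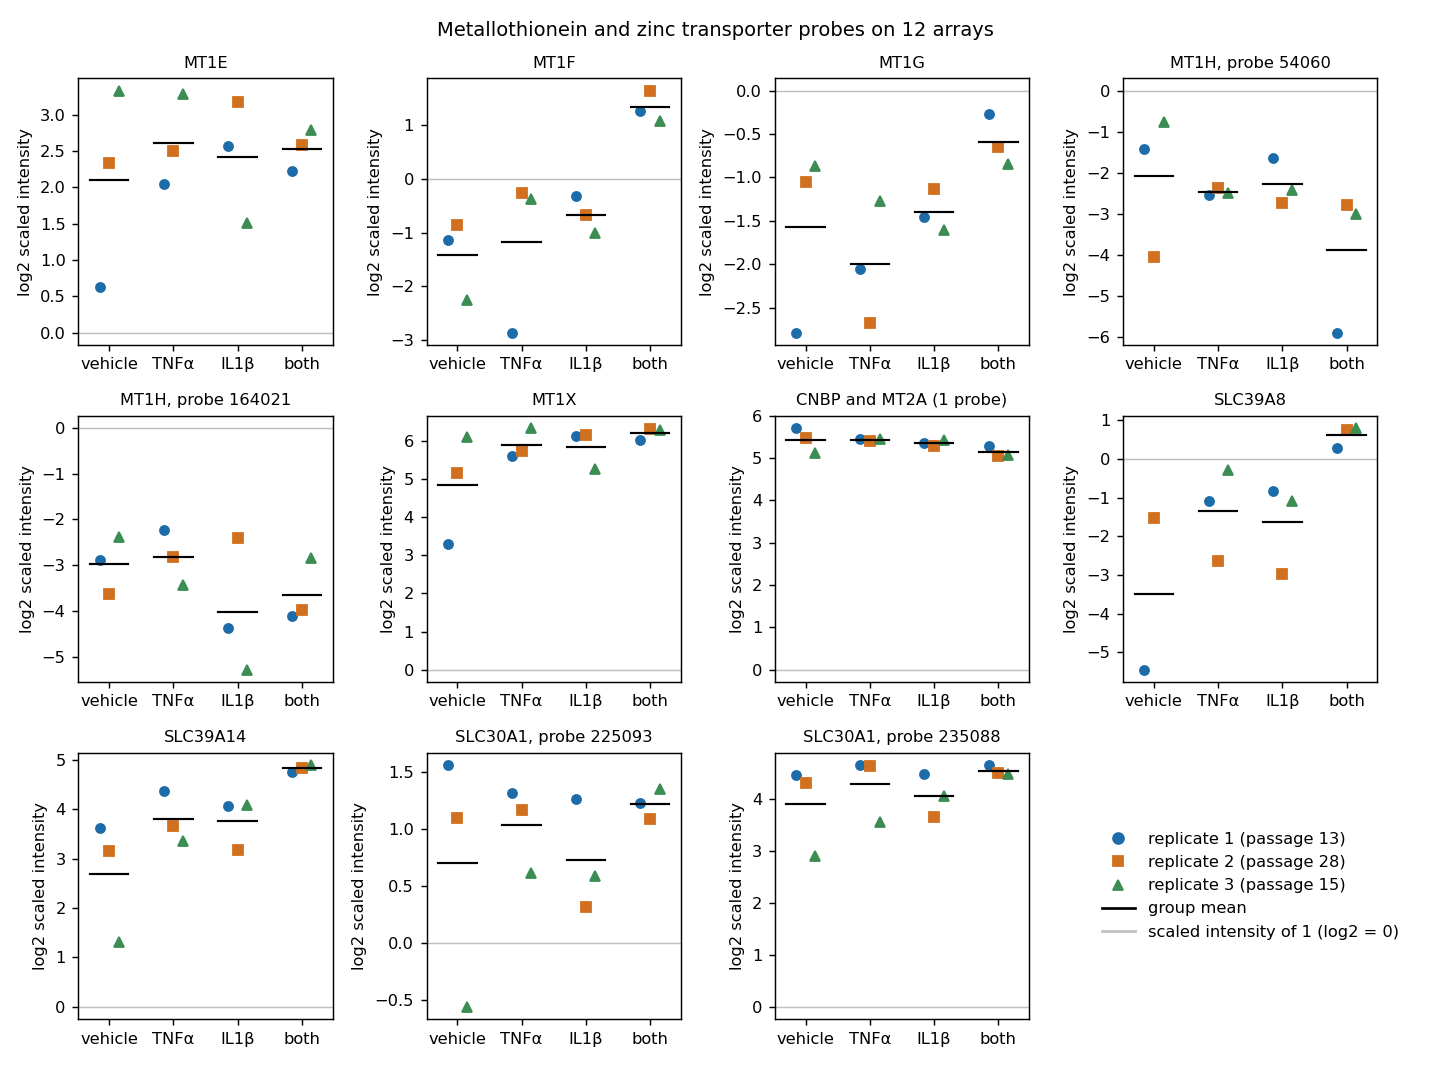
Each panel plots the log2 scaled intensity of 1 probe on the 12 arrays by treatment, with symbols for the replicate (passage) and a black line for the group mean; the SLC39A8 panel lacks vehicle replicate 3, whose intensity was below 0. MT1F, SLC39A14 and SLC39A8 with both cytokines lay above every other array, while MT1X and MT1E were lowest on vehicle replicate 1.

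The importers SLC39A14 and SLC39A8 and the metallothionein MT1F were higher in the cultures that received both cytokines than on any other array, yet no member probe passed the test in any comparison. Group means were compared with limma across 53671 probes, with Benjamini-Hochberg adjustment over all of them, and a probe was called at an adjusted p under 0.05. With both cytokines against vehicle, 0 of 11 member probes were called, where 0.248% of all probes were. At an unadjusted p under 0.05 the members gave 4 of 11 (MT1F, SLC39A14, SLC39A8 and MT1X, all higher), against 12.9% of all probes. On every array with both cytokines, 5 of 11 member probes (MT1F, SLC39A14, SLC39A8, MT1G and SLC30A1 probe 235088) were higher than on any vehicle array that had a value, against 7.02% of all probes. None of the 11 was lower on every array, against 14.8% of all probes. The members were chosen with earlier results of these data known, so the counts here and below describe them and do not test the set. Each array measures RNA from a whole culture, so a change in the cells present and a change of RNA per cell cannot be told apart. Epithelial markers were lower in the same cultures: 5 of 6 (KRT19, KRT18, MUC1, KRT8 and EPCAM) had every measured value with the combination below every vehicle value, against the 14.8% above, and KRT18 passed the test at -1.58 ± 0.26 (limma adjusted p 0.0447). The linear intensities of the 6 epithelial markers were also summed, a sum in which the bright KRT19 weighs most. The log2 of this sum ranged from 6.45 to 6.92 with vehicle, 5.90 to 6.74 with TNFα, 4.72 to 6.02 with IL1β and 5.29 to 5.35 with both. The log2 of the summed intensities of the 7 stromal markers, which the brightest of them dominate, ranged from 9.79 to 11.2 with vehicle and 10.4 to 10.5 with both. MME was the 1 of 7 that was higher on every array, by 1.99 ± 0.37 (adjusted p 0.0754). The part of these markers in the members' values was not tested. The median change of the 11 probes was 0.65 on the log2 scale, beside -0.13 over all probes tested.

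Of the transporters, the importers differed most from vehicle. SLC39A14, which brings zinc and iron into the cell, read 3.63, 3.16 and 1.30 on the vehicle arrays (replicates 1 to 3), 4.37, 3.67 and 3.36 with TNFα, 4.07, 3.17 and 4.09 with IL1β, and 4.76, 4.84 and 4.90 with both. The 3 arrays with both cytokines lay together above every other array, and the vehicle arrays spread widely because replicate 3 was low. The change with both was 2.14 ± 0.54 (SE, n = 3 per group), a 4.40-fold difference, with a 95% interval of 0.94 to 3.34 and an adjusted p of 0.166 in limma. Within passages 13, 28 and 15 the same difference was 1.13, 1.68 and 3.60, so it was positive in 3 of 3. Without vehicle replicate 3 it was 1.44 (adjusted p 0.133). With TNFα alone the change was 1.10 ± 0.54 (adjusted p 0.736) and with IL1β alone 1.08 ± 0.54 (adjusted p 0.557), and in both cases the arrays overlapped those of vehicle. The sum of the changes with each cytokine alone lay close to the change with both: the interaction of the cytokines was -0.04, with a 95% interval of -1.73 to 1.66, which leaves room for large departures either way. This closeness depended on vehicle replicate 3, without which the change with TNFα was 0.40 and the interaction 0.66 for SLC39A14.

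SLC39A14 was the 1 member whose call moved with the handling of the arrays that stood apart. With each array's score on the first component as a covariate, a setting chosen after seeing the data, the change with both cytokines was 2.02 with an adjusted p of 0.00736, in a fit that called 1.46% of all probes. In the same fit the main effect of TNFα, which averages over IL1β, was 1.05 for SLC39A14 (adjusted p 0.0282), with 0.317% of all probes called. With weights estimated for each array by limma the change with both was 1.76 (adjusted p 0.0269), with 3.12% of all probes called. SLC39A14 was the only member probe called in each of these 3 results. The weights of vehicle replicates 1 to 3 were 0.312, 1.89 and 0.174, so vehicle replicate 2 made up most of the weighted vehicle mean. They were estimated gene by gene, after another limma method had given that same array a near-zero weight. Leaving out vehicle replicate 3, TNFα replicate 3 and IL1β replicate 2 together gave 1.44 (adjusted p 0.0731). That fit kept vehicle replicate 1, which stood apart at the other end of the component. Without vehicle replicate 1 alone the change was 2.60 (limma adjusted p 0.113).

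SLC39A8, the other importer, was dim in the absence of the combination. Its scaled intensity was 0.0229, 0.345 and -0.0083 on the vehicle arrays, 0.469, 0.161 and 0.822 with TNFα, 0.564, 0.127 and 0.470 with IL1β, and 1.21, 1.69 and 1.76 with both. The probe passed the array's middle intensity only with both cytokines, on 3 of 3 arrays, and was below it on all 9 others. The vehicle array below 0 has no log2 value, so the fit used 2 vehicle arrays; the change with both was 4.11 ± 1.12 on the log2 scale (95% interval 1.58 to 6.63, limma adjusted p 0.201). Its size rests on how low the vehicle values were: with an offset of 0.1 before the log2 step, which kept all 3 vehicle arrays, the change was 3.25 (adjusted p 0.0626), and with array weights it was 2.74 (adjusted p 0.0898). Within passages 13 and 28, where vehicle had a value, the difference was 5.73 and 2.29. With TNFα alone the change was 2.16 ± 1.12 (adjusted p 0.762) and with IL1β alone 1.86 ± 1.12 (adjusted p 0.622), each overlapping vehicle. Those means hid opposite signs for SLC39A8: within passages 13 and 28 the difference was 4.36 and -1.10 with TNFα, and 4.62 and -1.44 with IL1β. With array weights, which leaned mostly on vehicle replicate 2, the changes were 0.61 and 0.80.

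The exporter SLC30A1 differed less from vehicle than the importers. Probe 235088 read 4.46, 4.31 and 2.91 with vehicle, 4.65, 4.62 and 3.56 with TNFα, 4.48, 3.64 and 4.05 with IL1β, and 4.65, 4.49 and 4.47 with both. The values with both cytokines were above those of vehicle by a margin smaller than the spread of the vehicle arrays, and the change was 0.65 ± 0.44 (limma adjusted p 0.569). It was 0.15 without vehicle replicate 3. Probe 225093 read 1.57, 1.10 and -0.56 with vehicle and 1.23, 1.09 and 1.35 with both, which overlapped, and the change was 0.52 ± 0.48 (adjusted p 0.695), or -0.11 without vehicle replicate 3.

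Among the metallothioneins, MT1F stood apart. It read -1.13, -0.86 and -2.25 on the vehicle arrays, -2.86, -0.27 and -0.37 with TNFα, -0.32, -0.67 and -1.01 with IL1β, and 1.26, 1.64 and 1.09 with both. The 9 arrays without the combination were all below 0, and the 3 arrays with it were all above. The change with both was 2.75 ± 0.63 (SE, n = 3 per group), a 6.71-fold difference, with a 95% interval of 1.34 to 4.15 and an adjusted p of 0.14 in limma, the lowest of the 11 members. The difference was 2.40, 2.50 and 3.34 within passages 13, 28 and 15, and leaving out any single vehicle array gave 2.33 to 3.03.

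With either cytokine alone MT1F differed from vehicle by less than 1.5 times its standard error. The change was 0.25 ± 0.63 with TNFα (adjusted p 0.986) and 0.75 ± 0.63 with IL1β (adjusted p 0.74), in both cases with overlapping arrays. Against TNFα alone the combination was higher by 2.50 ± 0.63 (adjusted p 0.765) and against IL1β alone by 2.00 ± 0.63 (adjusted p 1). The interaction of the cytokines for MT1F was 1.75 ± 0.90 with a 95% interval of -0.24 to 3.74 and an adjusted p of 1, so for MT1F the difference between the combination and the sum of the single cytokines did not pass the test in limma. For MT1F the interaction was 0.90 without TNFα replicate 1, the lowest of the 12 arrays, and 2.78 with array weights.

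MT1X was the brightest member with a probe of its own, and its change depended on which vehicle array was kept. It read 3.30, 5.17 and 6.10 with vehicle, 5.60, 5.73 and 6.35 with TNFα, 6.13, 6.16 and 5.28 with IL1β, and 6.04, 6.33 and 6.29 with both. Vehicle replicate 1 was the lowest of the 12 arrays, while vehicle replicate 3 was above 4 of the 9 treated arrays. The change with both was 1.36 ± 0.59 (95% interval 0.06 to 2.67, limma adjusted p 0.367), and it was 0.58 without vehicle replicate 1 and 1.98 without vehicle replicate 3. With TNFα the change was 1.04 ± 0.59 (adjusted p 0.783) and with IL1β 1.00 ± 0.59 (adjusted p 0.614).

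MT1E followed MT1X from array to array. It read 0.62, 2.33 and 3.33 with vehicle, 2.05, 2.50 and 3.28 with TNFα, 2.57, 3.18 and 1.51 with IL1β, and 2.22, 2.58 and 2.79 with both. The groups overlapped throughout, and the change with both was 0.44 ± 0.65 (limma adjusted p 0.827). It turned to -0.30 without vehicle replicate 1 and was 1.06 without vehicle replicate 3.

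MT1G was dim on every array, at -2.78, -1.05 and -0.87 with vehicle, -2.05, -2.67 and -1.27 with TNFα, -1.46, -1.13 and -1.60 with IL1β, and -0.27, -0.65 and -0.84 with both. The lowest array with both cytokines was only just above the highest vehicle array. The change was 0.98 ± 0.50 (limma adjusted p 0.444), and it was 0.37 without vehicle replicate 1. MT1H was dimmer still, and both of its probes had lower means with both cytokines: probe 54060 differed by -1.82 ± 0.93 (adjusted p 0.444) and probe 164021 by -0.66 ± 0.68 (adjusted p 0.729), and both overlapped vehicle. Without vehicle replicate 3 these changes were -1.16 and -0.37. On probe 54060 replicate 1 with both cytokines read -5.90, and without that array the change was -0.82. With array weights the change of this probe was -0.22, and its difference was -4.48, 1.27 and -2.25 within passages 13, 28 and 15. The probe listed with CNBP and MT2A was bright, with group means of 5.43 ± 0.30 with vehicle, 5.43 ± 0.03 with TNFα, 5.36 ± 0.07 with IL1β and 5.13 ± 0.13 with both (SD, n = 3), and a change with both of -0.30 ± 0.18 (adjusted p 0.525), which was -0.16 without vehicle replicate 1 and -0.46 without vehicle replicate 3.

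**Figure D2:**
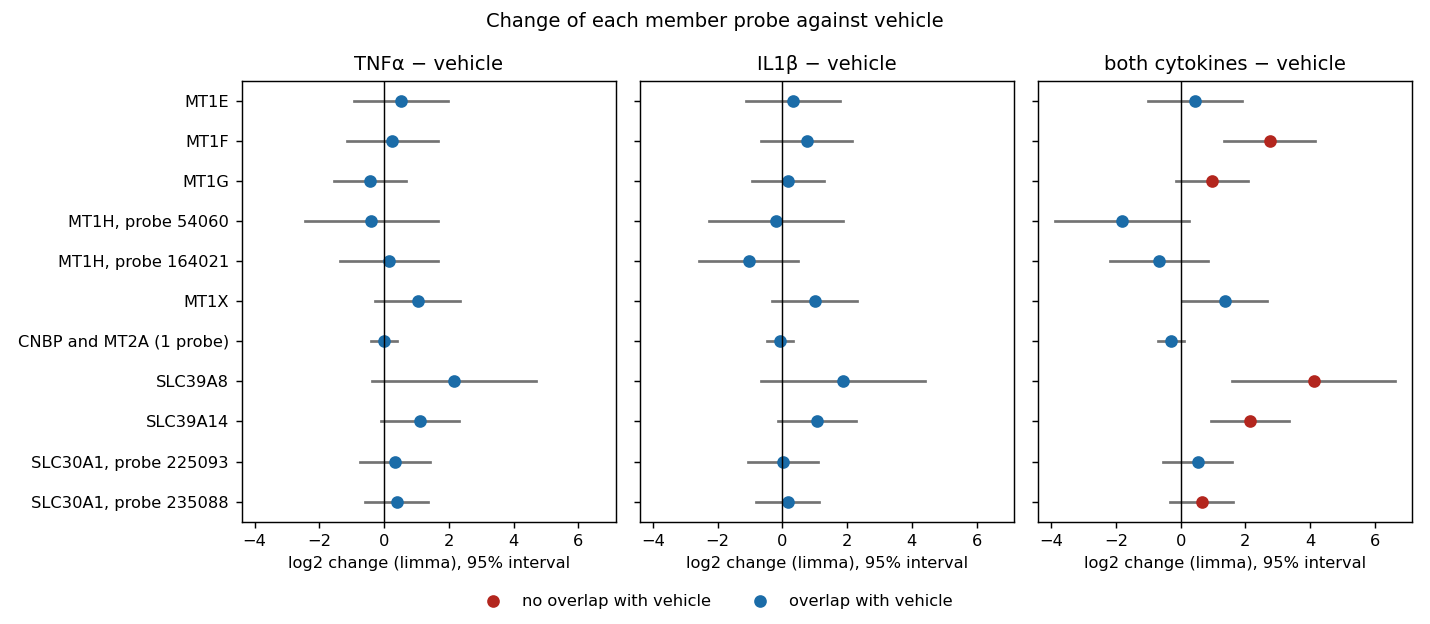
Points give the log2 change of each member probe against vehicle in limma and bars its 95% interval, for TNFα, IL1β and both cytokines; red points are probes whose treated arrays lay entirely above the vehicle arrays. The intervals of MT1F, SLC39A8, SLC39A14 and MT1X lie above 0 with both cytokines, and every interval with a single cytokine spans 0.

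With a single cytokine no member stood clear of the vehicle arrays. With TNFα 0 of 11 member probes were called, against 0.0466% of all probes, and 0 of 11 had an unadjusted p under 0.05, against 7.05%. No member was higher on every TNFα array than on every vehicle array, against 3.72% of all probes, or lower, against 6.88%. With IL1β 0 of 11 were called, against 0.00559% of all probes, and 0 of 11 had an unadjusted p under 0.05, against 9.67%. No member was higher on every IL1β array, against 3.53% of all probes, or lower, against 9.96%. The median change of the members was 0.33 with TNFα, beside -0.05 over all probes, and 0.17 with IL1β, beside -0.13 over all probes. The 3 comparisons with vehicle share the same vehicle arrays.

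The combination was compared with each cytokine alone. Against TNFα alone, 0 of 11 members were called, with 0.00186% of all probes called, and 2 of 11 (MT1F and MT1G) had an unadjusted p under 0.05, against 5.08%. MT1G was higher by 1.41 ± 0.50 (limma adjusted p 0.951). Against IL1β alone, 0 of 11 were called, with 0% of all probes called, and 1 of 11 (MT1F) had an unadjusted p under 0.05, against 4.37%. In each of these comparisons 4 of 11 member probes (MT1F, MT1G, SLC39A8 and SLC39A14) were higher with both cytokines on every array, against 6.5% of all probes for TNFα alone and 8.09% for IL1β alone. Another 2 of 11 (MT1H probe 54060 and the probe listed with CNBP and MT2A) were lower on every array, against 14.7% and 6.7%. MT1H probe 54060 differed by -1.42 ± 0.93 from TNFα alone (adjusted p 0.981) and by -1.62 ± 0.93 from IL1β alone (adjusted p 1), and the shared probe by -0.30 ± 0.18 and -0.23 ± 0.18. For MT1H probe 54060 passage 13 gave most of both values. Within passages 13, 28 and 15 its difference was -3.35, -0.41 and -0.51 from TNFα alone. From IL1β alone it was -4.24, -0.03 and -0.60. SLC39A14 with both was higher by 1.04 ± 0.54 than with TNFα alone (adjusted p 0.981) and by 1.06 ± 0.54 than with IL1β alone.

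Averaged over the other cytokine, TNFα again gave 0 of 11 calls, with 0.0801% of all probes called, and 3 of 11 members had an unadjusted p under 0.05, against 7.53%. These were SLC39A8, SLC39A14 and MT1F, with main effects of 2.20 ± 0.75 (limma adjusted p 0.53), 1.08 ± 0.38 (adjusted p 0.536) and 1.12 ± 0.45 (adjusted p 0.606). IL1β averaged the same way gave 0 of 11 calls, with 0.0112% of all probes called, and 4 of 11 members had an unadjusted p under 0.05, against 11.4%. They were MT1F at 1.62 ± 0.45 (adjusted p 0.33), SLC39A14 at 1.06 ± 0.38 (adjusted p 0.349), SLC39A8 at 1.91 ± 0.75 (adjusted p 0.39) and MT1G at 0.79 ± 0.35 (adjusted p 0.438). For the interaction, 0 of 11 members were called, with 0% of all probes called, and 0 of 11 had an unadjusted p under 0.05, against 3.59%.

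The members fell into groups by how they varied from array to array. MT1X and MT1E correlated at a Pearson r of 0.876 over the 12 arrays and 0.958 after each group's mean was removed. MT1L, a metallothionein pseudogene outside the member list, correlated with MT1X at 0.943 and with MT1E at 0.96. These 3 probes were higher on arrays with higher scores on the first component, with r of 0.668 for MT1X, 0.864 for MT1E and 0.82 for MT1L. The probes of SLC30A1 correlated with each other at 0.942 and ran the other way along the component, at -0.848 and -0.875, as did SLC39A14 at -0.634. MT1F had little relation to the component, with r of -0.18. MT1F and SLC39A14 correlated at 0.609 over the arrays but at 0.05 within groups, so what they shared was the difference between groups. These correlations are descriptions over 12 arrays that share groups and passages. With the component 1 score as a covariate, the change with both cytokines was 1.49 for MT1X (limma adjusted p 0.0546), 0.58 for MT1E (adjusted p 0.328), and 0.55 (probe 235088, adjusted p 0.158) and 0.42 (probe 225093, adjusted p 0.293) for SLC30A1. What sets vehicle replicates 1 and 3 apart was not tested.

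**Figure D3:**
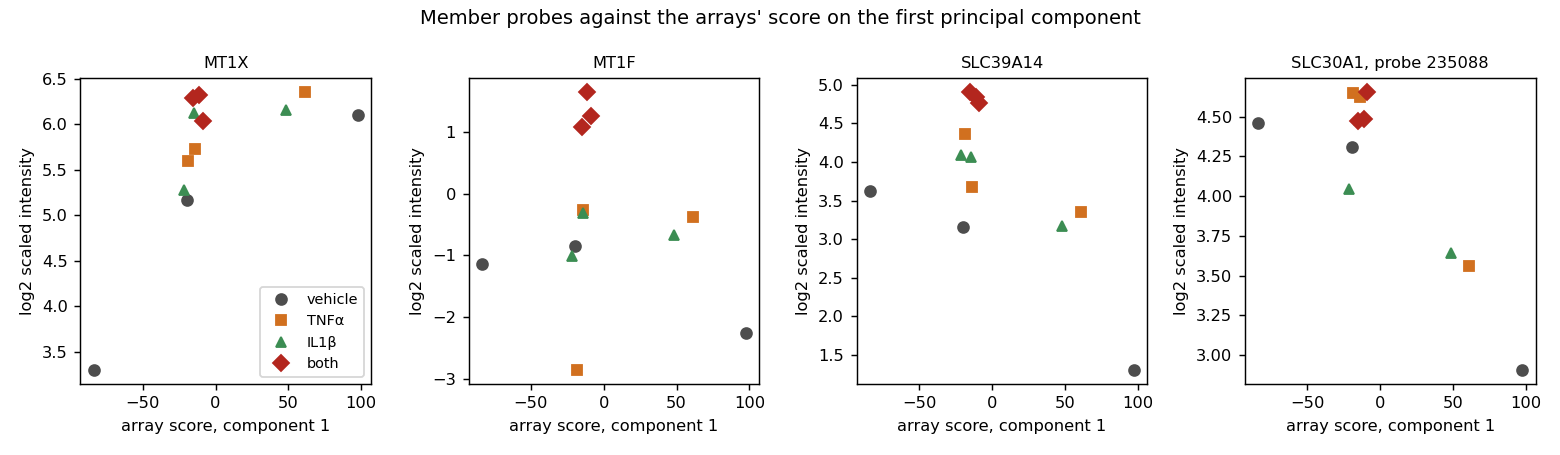
The log2 scaled intensity of 4 member probes is plotted against each array's score on the first principal component, with a symbol for each treatment. MT1X is lowest on vehicle replicate 1 at the far left (score -83.7), SLC39A14 and SLC30A1 are lowest on vehicle replicate 3 at the far right (score 97.6), and the 3 arrays with both cytokines sit close to one another in every panel.

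The genes whose pattern over the arrays was most like that of each member were taken from up to 15366 genes by Pearson correlation. MT1F was most like IL12B-AS1 (r 0.883), IL27 (0.865) and LONRF3 (0.857). SLC39A14 was most like AMIGO2 (0.974), NHS (0.973) and CCDC71L (0.965), and SLC39A8, over 11 arrays, BMPER (0.981), SETP4 (0.951) and CPNE9 (0.949). MT1X was most like FOXO4 (0.98), OTUD7A (0.976) and WDFY4 (0.976), and MT1E was most like DKK4 (0.968), MT1L (0.96) and RPL23A (0.957). SLC30A1 was most like SLC8B1 (0.981), BICRAL (0.98) and RNF121 (0.979). MT1G was most like CHRNA2 (0.919), SCGB2B2 (0.893) and MATCAP2 (0.873), and MT1H (probe 54060) was most like GPNMB (0.921), HAP1 (0.887) and HENMT1 (0.881). The probes of MT1H correlated with each other at only 0.283.

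The rest of the zinc system gave no call in any comparison, where at most 0.248% of all probes were called. Shares that low leave little room for a call among so few genes. Of the other metallothioneins 5 of 10 had a probe of their own, and 0 of 5 were called with both cytokines, with a median change of 0.47. MT1IP had the lowest p, at 0.26 ± 0.20 (limma adjusted p 0.611). Of the other ZIP importers 0 of 12 were called, with a median of 0.06, and SLC39A10, an importer at the cell surface, had the lowest p at -0.50 ± 0.28 (adjusted p 0.495). Of the other ZnT transporters 0 of 9 were called, with a median of -0.002, and SLC30A6 had the lowest p at -0.40 ± 0.19 (adjusted p 0.401). MTF1 itself differed by -0.11 ± 0.17 (adjusted p 0.839). None of these genes had an unadjusted p under 0.05 in limma with both cytokines, against 12.9% of all probes. For the main effect of TNFα 1 of 5 metallothioneins did (MT3, 0.84 ± 0.33, limma adjusted p 0.6), against 7.53% of all probes. For the interaction 1 of 12 importers did (SLC39A3, 2.11 ± 0.71), against 3.59%. Both probes were dim, at the 28.9 and 29.7 percentiles.

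The lowest p among these lists was no nearer a call with a single cytokine. With TNFα they were MT3 at 0.77 ± 0.49 (limma adjusted p 0.819), SLC39A3 at -1.06 ± 0.50 (adjusted p 0.726) and SLC30A7 at 0.45 ± 0.23 (adjusted p 0.741), with MTF1 at -0.07 ± 0.17. With IL1β they were MT1L at 0.56 ± 0.57 (adjusted p 0.791), SLC39A10 at -0.61 ± 0.28 (adjusted p 0.531) and SLC30A2 at -0.48 ± 0.29 (adjusted p 0.617), with MTF1 at -0.27 ± 0.17. Genes of iron and copper handling gave 0 calls of 20 measured in any comparison, where at most 0.248% of all probes were called. With both cytokines 3 of 20 had an unadjusted p under 0.05 in limma, all higher, against 12.9% of all probes. Their lowest p was for the transferrin receptor TFRC with TNFα, at 0.88 ± 0.31 (adjusted p 0.593), for the hormone gene HAMP with IL1β, at -4.23 ± 1.29 (adjusted p 0.431), and for the iron regulatory protein ACO1 with both, at 0.82 ± 0.30 (adjusted p 0.304). HAMP was dim, at the 8.63 percentile, and its value with IL1β rests on 2 arrays at -3.89 and -8.70, so the size of that change has little meaning.

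**Figure D4:**
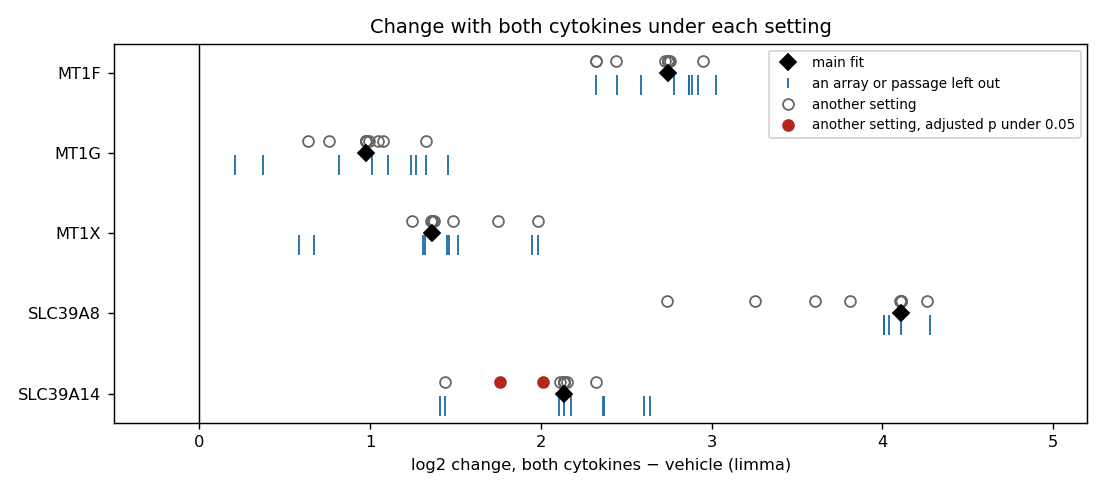
The log2 change with both cytokines against vehicle is plotted for 5 members, with a diamond for the value reported, blue ticks with an array or a passage left out, and circles for other settings. All values lie above 0, MT1F stays between 2.32 and 3.03, and the 2 red circles are the settings under which SLC39A14 passed an adjusted p of 0.05.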

How the data were processed

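Gene expression was measured on single-colour oligonucleotide arrays, 1 array for each of 12 cultures. The deposited values were linear intensities, and scaling by the authors to each array's median was inferred from the values; the software behind them is not given in the sources used here. The code -9999 (0.716% of values) and values not above 0 (1.1%) were set to missing before log2. The deposited intensities were then used without further scaling, since the array medians spread over only 0.05 log2 units. Probes were named from the platform's gene table, with 23472 probes listed with 1 gene, 905 with several and 29982 with none, and symbols were updated by Entrez identifier for 23434.

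Group means were fitted with limma 3.58.1 in R 4.3.3 (two-sided moderated tests, 8 residual degrees of freedom) on the 53671 probes with values on at least 2 arrays of every group, with Benjamini-Hochberg adjustment. With 3 arrays a group the smallest two-sided p of an exact permutation test is 0.1, so none was used. The number of arrays limits the precision. The fit was checked on simulated data with independent noise on each probe and array. Such data lack the differences between whole arrays seen here, so the check does not cover them.

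The members and lists were chosen with earlier results of these data known. All member probes were named in every comparison; from other lists the gene with the lowest p was named where none was called, SOD2, HSD11B1 and CXCL8 served as checks that the cytokines acted, and the 3 genes most like each member by Pearson correlation were named. Replicate numbers stand for passages in the labels. Residuals correlated at a mean of 0.0071 over the 18 pairs of arrays that share a number (-0.196 to 0.31) and at -0.0029 over the 36 other pairs, so the passage entered only as an alternative. Alternatives were an offset of 0.1, removal of the dimmest 25% of probes, median centring, quantile normalization, complete probes, 1 probe per gene, another variance prior, array weights, the replicate block, fewer arrays in the fit, each array or passage left out, and the first component as a covariate.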

Additional observations from a re-analysis of the deposited data

How the results depend on the processing

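The count of member probes called was 0 in all 8 comparisons, and it stayed at 0 under every alternative run except 3 results, all for SLC39A14. Both cytokines against vehicle gave 1 call with array weights and 1 with the component 1 score as a covariate, a setting chosen after seeing the data, and the main effect of TNFα gave 1 with that covariate. The method for the array weights was also chosen after another had given vehicle replicate 2 a near-zero weight. In the 21 alternatives for both cytokines against vehicle, the number of members with an unadjusted p under 0.05 ranged from 2 to 7, from 4 in the values reported. The change of MT1F ranged from 2.32 to 3.03 with adjusted p of 0.0668 to 0.418 (limma), and that of SLC39A14 from 1.41 to 2.64 with adjusted p of 0.00736 to 0.443. Leaving out vehicle replicate 1, 2 or 3 moved the change of MT1X, MT1G, MT1E, MT1H, SLC30A1 or the shared CNBP and MT2A probe by more than 1.5 times, and turned the sign of MT1E and of SLC30A1 probe 225093. MT1H probe 54060 was at -2.80 without vehicle replicate 2, and at -0.82 without replicate 1 of the arrays with both cytokines. SLC39A14 fell from 2.14 to 1.44 without vehicle replicate 3. SLC39A8 had too few vehicle values to be refitted without vehicle replicate 1 or 2, so its dependence on either array could not be measured this way. Over all members with both cytokines, 5 of 221 alternative values changed sign; with TNFα 28 of 221 did, and with IL1β 26 of 221.

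With the replicate block (the passage as a term) 0 member probes were called in any comparison, and the paired change with both cytokines was 2.75 for MT1F (limma adjusted p 0.197) and 2.14 for SLC39A14 (adjusted p 0.211). The block changed no call. Signal over background limits MT1F, MT1G, MT1H and SLC39A8, whose vehicle values were below the middle of the array, and their log2 changes depend on those low values.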
